A study of Mus musculus with 6 samples.

Results

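The SNARE, Rab and granule fusion machinery was examined in mouse beta-cells that had been cultured with or without other endocrine cells. It was taken as 39 genes chosen by name for their part in docking, priming and fusion of insulin granules, with the synaptotagmins left out. The choice used names and roles, not a threshold on a measured value, but was made with earlier results of these data known. Of these, 35 are among the 13535 genes of the expression table, while *Cplx1*, *Rims1*, *Rab27b* and *Sytl2* were not analysed here. Islet cells came from wild-type (WT) C57BL/6JRj male mice 12 weeks of age and were sorted, left to reaggregate in agarose moulds in RPMI medium with serum for 5 days, dispersed and sorted again to recover the beta-cells. Pseudo-islets held alpha-, beta- and delta-cells, and pseudo-beta held beta-cells alone, so all cells had been through dissociation, reaggregation and sorting and neither group stands for a native islet. Each group had 3 libraries, 1 from each of the experiments numbered 35, 36 and 37, and values of single libraries are given below in that order. The comparison asks whether beta-cells that spend the culture without alpha- and delta-cells differ in the transcripts of the proteins that carry granules to the plasma membrane and fuse them with it.

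Insulin is stored in dense-core granules and leaves the beta-cell when a granule membrane fuses with the plasma membrane. A SNARE protein of the granule (a VAMP) zips into a bundle with SNARE proteins of the plasma membrane (a syntaxin and a SNAP), which pulls the membranes together once calcium enters. Rab GTPases of the granule and their effectors bring it to the membrane, RIM scaffolds place it near calcium channels, and Munc13 and CAPS proteins prime it. Munc18 proteins guide syntaxin into the bundle, tomosyns occupy the same partners without a membrane anchor and hold fusion back, and NSF with its adaptor takes spent bundles apart for another round. Glucagon and GLP1 act on beta-cells through cAMP, which amplifies this exocytosis.

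The values are the authors' normalized counts, which correct for the depth of each library but not for gene length. They summed to 17994346 to 19635287 per library, the number of reads behind them is unknown, and *Ins2* alone took 29.7% to 30.8%. The libraries carried the markers of their beta-cell label, and *Ins2* and *Ins1* were among the most abundant genes of the table. Of the 12 beta-cell symbols listed, which hold the same gene as *Ero1lb* and *Ero1b*, 11 were in the table. They were also compared between the groups in limma with a replicate block for the experiment, as described below. Of the 11, 7 (63.6%) had an unadjusted p under 0.05 in that limma fit, beside 11.9% of all genes. Only *Ero1lb* passed adjustment there (limma, adjusted p = 0.00204), higher in pseudo-islets, and the median log2 fold change of the 11 was 0.16. Without the block, limma had 2 such p-values and called 0. Alpha-cell markers (6 of 12 in the table) summed to 7583 to 11544 normalized counts in pseudo-islets and 5052 to 6216 in pseudo-beta, delta-cell markers (4 of 8) to 1111 to 1372 and 622 to 813, and PP-cell markers (3 of 4) to 876 to 5757 and 508 to 2687. *Gcg* was listed at 0 in pseudo-beta of experiment 37, and *Sst* in pseudo-beta of experiments 35 and 36. None of the 8 acinar and none of the 6 stromal markers was in the table, and 1 of 6 endothelial and 1 of 6 immune markers were, at 89.5 or fewer and 18.6 or fewer normalized counts. The sums of the alpha- and delta-cell markers were thus higher in pseudo-islets without overlap. Taken singly, the groups did not overlap for 2 of the 6 alpha-cell and 2 of the 4 delta-cell markers, beside 10.8% of all genes. With the block, limma called *Ttr*, *Gcg*, *Sst*, *Etv1*, *Ppy* and *Pyy* higher in pseudo-islets at an adjusted p under 0.05, beside 0.539% of all genes called. The part of alpha-, delta- and PP-cells in the values of the fusion genes was not tested. In a bulk library, a change in the number of cells of one type and a change of RNA per cell cannot be told apart.

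At an adjusted p under 0.05, 0 of the 35 fusion genes differed between pseudo-islets and pseudo-beta. The test was limma on log2(value + 1) with Benjamini-Hochberg adjustment over all 13535 genes, of which it called 0.0591%, and the lowest adjusted p of a fusion gene was 0.901. When limma was given a replicate block for the experiment, so that libraries of the same experiment are set against each other, it called 0.539% of all genes and again 0 fusion genes, with a lowest adjusted p of 0.338. At an unadjusted p under 0.05, limma without the block had 1 fusion gene (2.86%), beside 5.4% of all genes, and with the block it had 3 (8.57%), beside 11.9% of all genes. The libraries of the groups did not overlap for 4 fusion genes (11.4%), beside 10.8% of all genes. The difference had the same sign in 3 of 3 experiments for 11 (31.4%), beside 33.1% of all genes. By each of these counts the fusion genes were close to the table as a whole. A single gene in 3 against 3 libraries cannot go below 0.1 in an exact two-sided permutation test.

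**Figure D1:**
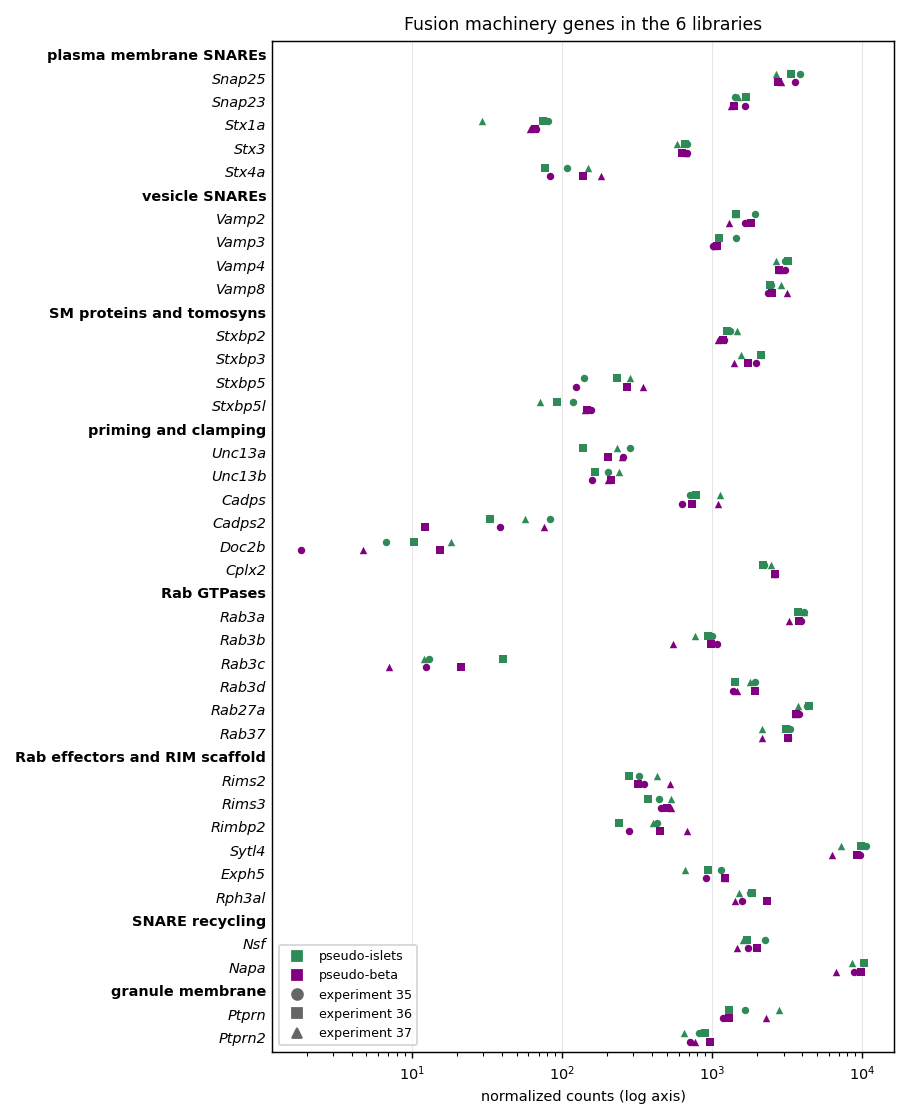
Normalized counts (log axis) of the 35 fusion genes, grouped by role, in each of the 6 libraries. Green symbols are pseudo-islets, purple symbols pseudo-beta, and circles, squares and triangles are experiments 35, 36 and 37. For all genes but *Vamp3*, *Stxbp2*, *Stxbp5l* and *Cplx2* the green and purple symbols overlap, and the genes span from 1.83 (*Doc2b*) to 10649.9 normalized counts (*Sytl4*).

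Most differences were also small. The log2 fold changes of pseudo-islets over pseudo-beta had a median of 0.07 for the fusion genes and 0.01 for all genes, with 20 fusion genes above 0 and 15 below. They were under 0.1 in size for 13 genes and over 0.5 for 4, which were *Stxbp5l*, *Cadps2*, *Doc2b* and *Rab3c*. These 4 had at most 156 normalized counts in any library. For 19 of the 35 genes the 95% interval of limma lay within a 1.5-fold change in either direction, and with the replicate block it did so for 26, beside 27.3% and 42% of all genes. That share depends on level: where the mean reached 500 normalized counts it was 18 of 23 fusion genes, and 22 of 23 with the block, beside 66.2% and 88.9% of all 4448 such genes. For the other 16 genes, or 9 with the block, the interval reached past a 1.5-fold difference, so a change of that size was not excluded.

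Among the SNAREs of the plasma membrane, *Snap25* and *Snap23* were the most abundant transcripts and the syntaxins lay below them. Per kilobase of exon, *Snap25* (ENSMUSG00000027273, chromosome 2 from 136713453 to 136782428 of GRCm38), which encodes the SNAP of neurons and endocrine cells, had a median level over the 6 libraries of 461 (range 396 to 567) normalized counts. *Snap23*, its widely expressed relative, had 341 (range 310.3 to 391), just below and without overlap, although the ranges overlap per kilobase of the longest transcript (551 to 789 and 488 to 615). The syntaxins followed in the order *Stx3* at 117 (range 103 to 119.8), *Stx4a* at 52.4 (range 32.9 to 77.8) and *Stx1a* at 25.2 (range 11.1 to 30.6) normalized counts per kilobase, and none of these ranges overlapped its neighbour. *Snap25* had a normalized count of 3852, 3355 and 2688 in the pseudo-islet libraries and of 3586, 2759 and 2905 in the pseudo-beta libraries. It was highest in experiment 35 in both groups, and its log2 fold change of 0.09 (95% interval -0.27 to 0.46) had an adjusted p of 0.998 in limma. *Stx1a* (ENSMUSG00000007207, chromosome 5 from 135023482 to 135051100), the syntaxin of regulated exocytosis in neurons and beta-cells, had a normalized count of 81.6, 75.1 and 29.5 in the pseudo-islet libraries and of 67.8, 66.6 and 61.9 in the pseudo-beta libraries. One library, pseudo-islets of experiment 37, was far below the other 5, which lay between 61.9 and 81.6. In limma it had a log2 fold change of -0.20 (95% interval -1.14 to 0.73) and an adjusted p of 0.998, and without that library the value was 0.26. *Snap23* ran from 1332 to 1679.8 normalized counts over the 6 libraries, *Stx3* from 590.0 to 684 and *Stx4a* from 77.7 to 184, with the groups overlapping in each.

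All 4 vesicle SNAREs were well expressed, and the levels of *Vamp8* and *Vamp4* stood above the other members without overlap. *Vamp8* (ENSMUSG00000050732, chromosome 6 from 72385223 to 72390703), a VAMP of endosomes and secretory granules, led with 1076 (range 1023 to 1359) normalized counts per kilobase, followed by *Vamp4*, a VAMP of the trans-Golgi network and endosomes, with 646 (range 589.5 to 701). *Vamp2*, the main VAMP of insulin granules, had 409.9 (range 342 to 511) and *Vamp3*, or cellubrevin, 375 (range 352 to 499.99), and these ranges overlapped. *Vamp3* (ENSMUSG00000028955, chromosome 4 from 151047300 to 151057963) had a normalized count of 1444, 1122 and 1094 in the pseudo-islet libraries and of 1017, 1074 and 1052 in the pseudo-beta libraries. Every pseudo-islet library was above every pseudo-beta library, but the gap between the nearest values was 1094 against 1074, and most of the difference came from pseudo-islets of experiment 35. The means were 1220.2 ± 195 normalized counts in pseudo-islets and 1047 ± 28.8 in pseudo-beta (SD, n = 3 each), with a log2 fold change of 0.21 (95% interval -0.14 to 0.56) and an adjusted p of 0.99 in limma. When the libraries were rescaled without their 10 most abundant genes, the groups of *Vamp3* overlapped. The gene overlaps *Camta1* on the same strand. *Vamp8* had a normalized count of 2457, 2453 and 2907 in the pseudo-islet libraries and of 2364, 2518 and 3140.5 in the pseudo-beta libraries, and its log2 fold change of -0.03 (95% interval -0.36 to 0.30) had an adjusted p of 0.998 in limma. Experiment 37 gave the highest value of *Vamp8* in both groups. *Vamp2* ran from 1303 to 1946 and *Vamp4* from 2691 to 3199.5 normalized counts, both with overlapping groups.

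Of the proteins that bind syntaxin, the Munc18 transcripts *Stxbp2* and *Stxbp3* were abundant and the tomosyn transcripts *Stxbp5* and *Stxbp5l* low. *Stxbp5l* (ENSMUSG00000022829, chromosome 16 from 37114942 to 37384962), which encodes tomosyn-2, a brake on SNARE assembly, had a normalized count of 118, 93.6 and 71.9 in the pseudo-islet libraries and of 156, 147 and 143 in the pseudo-beta libraries. It was lower in pseudo-islets in 3 of 3 experiments, and the highest pseudo-islet library was below the lowest pseudo-beta library. The means were 94.6 ± 23.2 normalized counts in pseudo-islets and 148 ± 6.57 in pseudo-beta (SD, n = 3 each). The log2 fold change of -0.67 (95% interval -1.29 to -0.05) had a standard error of 0.28, an unadjusted p of 0.036 and an adjusted p of 0.901 in limma. With the replicate block the adjusted p was 0.338, so the lower level of *Stxbp5l* did not pass the test in either fit. The gene overlaps *Gm15665* on the same strand and *Gm49567* on the opposite strand, and whether the counting used strand is not given in the sources used here. The other tomosyn gene, *Stxbp5*, had a normalized count of 141, 235 and 285 in the pseudo-islet libraries and of 125, 271 and 348 in the pseudo-beta libraries. Its libraries followed the experiment rather than the group, with 125 and 141 in experiment 35 and 285 and 348 in experiment 37. For *Stxbp5* limma gave a log2 fold change of -0.11 (95% interval -0.97 to 0.76) and an adjusted p of 0.998.

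*Stxbp2* (ENSMUSG00000004626, chromosome 8 from 3630955 to 3643644) encodes Munc18-2 and had a normalized count of 1327, 1258 and 1461 in the pseudo-islet libraries and of 1204, 1179 and 1096 in the pseudo-beta libraries. Its groups did not overlap, with every pseudo-islet library above every pseudo-beta library. The means were 1349 ± 103 normalized counts in pseudo-islets and 1159.8 ± 56.3 in pseudo-beta (SD, n = 3 each), a log2 fold change of 0.22 (95% interval -0.09 to 0.53) with an adjusted p of 0.978 in limma. *Stxbp3* (ENSMUSG00000027882, chromosome 3 from 108793176 to 108840526) encodes Munc18c, the partner of syntaxin 4, and had a normalized count of 2127, 2128 and 1555 in the pseudo-islet libraries and of 1964, 1735 and 1394 in the pseudo-beta libraries. It was higher in pseudo-islets within each experiment, while the groups overlapped because both libraries of experiment 37 were the lowest of their group. The log2 fold change of 0.19 (95% interval -0.21 to 0.59) of *Stxbp3* narrowed with the replicate block to an interval of -0.02 to 0.40, with an adjusted p of 0.476 in limma. Per kilobase the Munc18 levels were 346 (range 261 to 399) for *Stxbp3* and 296 (range 264 to 351) for *Stxbp2*, with overlapping ranges that are apart over the longest transcript. The tomosyns had 15.3 (range 8.44 to 18.3) for *Stxbp5l* and 15.3 (range 7.57 to 21.0) for *Stxbp5*, about the same level.

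Of the 7 priming and clamping genes, 6 were in the table and *Cplx2* stood far above the rest. Complexins bind the assembled SNARE bundle and both clamp and promote fusion. *Cplx2* (ENSMUSG00000025867, chromosome 13 from 54371349 to 54383917) had a normalized count of 2231, 2199.9 and 2487 in the pseudo-islet libraries and of 2639, 2644 and 2592 in the pseudo-beta libraries. All 3 pseudo-islet libraries were below all 3 pseudo-beta libraries, with pseudo-islets of experiment 37 the nearest. The means were 2306 ± 158 normalized counts in pseudo-islets and 2625 ± 28.7 in pseudo-beta (SD, n = 3 each). Its log2 fold change of -0.19 (95% interval -0.46 to 0.08) had an adjusted p of 0.981 in limma and 0.451 with the replicate block. Per kilobase *Cplx2* had 515 (range 446 to 536) normalized counts, and the next priming gene, *Cadps*, had 50.6 (range 42.1 to 75.0). *Cadps* encodes CAPS1, which primes dense-core granules, and *Cadps2* encodes its relative. They ran from 634 to 1129 and 12.2 to 83.7 normalized counts. The Munc13 genes *Unc13a* and *Unc13b* ran from 138 to 286 and from 158 to 239, with overlapping groups. *Doc2b* (ENSMUSG00000020848, chromosome 11 from 75768966 to 75796049), a calcium sensor with C2 domains, was the gene nearest to 0 and had a normalized count of 6.72, 10.4 and 18.3 in the pseudo-islet libraries and of 1.83, 15.4 and 4.75 in the pseudo-beta libraries. Its log2 fold change of 0.89 (95% interval -0.96 to 2.74) was the least precise of the fusion genes, with an adjusted p of 0.998 in limma. It was 0.30 without pseudo-beta of experiment 35, 1.57 without pseudo-beta of experiment 36 and 0.38 with a pseudocount of 10.

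The Rab GTPases of granules were led by *Rab3a* (ENSMUSG00000031840, chromosome 8 from 70754679 to 70758677), which had a normalized count of 4126, 3735 and 4132 in the pseudo-islet libraries and of 3915, 3799 and 3278 in the pseudo-beta libraries. Pseudo-beta of experiment 37 was the lowest library and the others lay within 3735 to 4132. Its log2 fold change of 0.13 (95% interval -0.15 to 0.41) had an adjusted p of 0.998 in limma. Per kilobase *Rab3a* had 1733 (range 1473 to 1856) normalized counts, ahead of *Rab27a* with 973 (range 916 to 1142), *Rab37* with 591 (range 403 to 619), *Rab3d* with 388 (range 329 to 464) and *Rab3b* with 273 (range 157 to 305). *Rab27a* encodes the GTPase that recruits granuphilin and its relatives to the granule, and *Rab37* is a further Rab of secretory granules. In that order *Rab37* and *Rab3d* overlapped, and *Rab3a*, *Rab27a* and *Rab37* did not overlap each other. This order depends on the length used: over the longest transcript *Rab27a* and *Rab37* had 1121 to 1399 and 824 to 1264 normalized counts per kilobase, which overlap. *Rab27a* ran from 3552 to 4431 normalized counts and had the higher value in the pseudo-islet library of each experiment, although its groups overlapped. *Rab3c* (ENSMUSG00000021700, chromosome 13 from 110054187 to 110280996) was close to absent and had a normalized count of 13.1, 40.8 and 12.1 in the pseudo-islet libraries and of 12.4, 21.2 and 7.04 in the pseudo-beta libraries. The highest values of *Rab3c* were in experiment 36 in both groups, and its log2 fold change of 0.56 (95% interval -0.92 to 2.04) had an adjusted p of 0.998 in limma. *Rab3b* ran from 553 to 1075, *Rab3d* from 1382 to 1948 and *Rab37* from 2148 to 3297 normalized counts.

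Of the 8 Rab effectors and RIM scaffold genes, 6 were in the table, with log2 fold changes from -0.33 to 0.14. The most abundant was *Sytl4* (ENSMUSG00000031255, chromosome X from 133936385 to 133981812), which encodes granuphilin, the effector of Rab27a that docks insulin granules. *Sytl4* had a normalized count of 10649.9, 9864 and 7198 in the pseudo-islet libraries and of 9697, 9206 and 6266 in the pseudo-beta libraries. Pseudo-islets exceeded pseudo-beta within each experiment, by 0.10 to 0.20 on the log2 scale, while both groups were lowest in experiment 37. The means were 9237 ± 1809 normalized counts in pseudo-islets and 8389.5 ± 1855 in pseudo-beta (SD, n = 3 each). The log2 fold change of 0.14 (95% interval -0.29 to 0.58) had an adjusted p of 0.998 in limma, and the replicate block narrowed the interval to -0.01 to 0.30 with an adjusted p of 0.441. Per kilobase *Sytl4* had 1844 (range 1223 to 2078) normalized counts, against 442 (range 374 to 613) for *Rph3al*, which encodes Noc2, and 100.1 (range 63.0 to 117) for *Exph5*, which encodes Slac2-b, both effectors of the granule Rabs. *Rims2* (ENSMUSG00000037386, chromosome 15 from 39198261 to 39684372), the RIM of beta-cell granule docking, had a normalized count of 329, 281 and 429 in the pseudo-islet libraries and of 351, 323 and 525 in the pseudo-beta libraries. It was lower in pseudo-islets in each experiment, by 0.09 to 0.29 on the log2 scale, and highest in experiment 37 in both groups. For *Rims2* limma gave a log2 fold change of -0.20 (95% interval -0.74 to 0.35) and an adjusted p of 0.998. Its level per kilobase was 32.8 (range 27.0 to 50.5), that of the short RIM gene *Rims3* was 60.1 (range 46.9 to 67.0) and that of *Rimbp2*, which links RIM to calcium channels, was 52.9 (range 30.5 to 85.9), and the ranges of these 3 genes overlapped. *Rims3* ran from 374 to 534, *Rimbp2* from 242 to 682, *Exph5* from 663 to 1229.7 and *Rph3al* from 1425 to 2338 normalized counts.

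*Napa* (ENSMUSG00000006024, chromosome 7 from 16098458 to 16117975), which encodes alpha-SNAP, the adaptor that loads NSF onto spent SNARE bundles, had the highest median level of all fusion genes per kilobase, with 2477 (range 1777 to 2712) normalized counts. *Napa* had a normalized count of 10173, 10268 and 8520.2 in the pseudo-islet libraries and of 8889, 9865 and 6728 in the pseudo-beta libraries. Within each experiment pseudo-islets were higher, by 0.06 to 0.34 on the log2 scale, but experiment 37 was low in both groups, so the groups overlapped. The means were 9654 ± 983 normalized counts in pseudo-islets and 8494 ± 1605 in pseudo-beta (SD, n = 3 each). Without the block, limma gave a log2 fold change of 0.20 (95% interval -0.15 to 0.54) and an adjusted p of 0.992. With the replicate block the interval was 0.03 to 0.36, the unadjusted p 0.0239 and the adjusted p 0.338 in limma. In the fit without the block the *Napa* value was 0.04 without pseudo-beta of experiment 37 and 0.31 without pseudo-beta of experiment 36, and when limma's prior variance did not follow mean level (the trend) the blocked unadjusted p was 0.218. *Nsf* (ENSMUSG00000034187, chromosome 11 from 103821782 to 103954056), the ATPase of this step, had a normalized count of 2256, 1714 and 1624 in the pseudo-islet libraries and of 1747, 1988 and 1473 in the pseudo-beta libraries. Pseudo-islets were higher in experiments 35 and 37 and lower in 36, and the log2 fold change of 0.10 (95% interval -0.28 to 0.48) had an adjusted p of 0.998 in limma. Its level per kilobase was 207 (range 177 to 270.3).

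The granule membrane proteins IA-2 and phogrin, encoded by *Ptprn* and *Ptprn2*, are relatives of receptor tyrosine phosphatases that span the granule membrane. *Ptprn* (ENSMUSG00000026204, chromosome 1 from 75247027 to 75264502) had a normalized count of 1673, 1293 and 2809 in the pseudo-islet libraries and of 1185, 1303 and 2287 in the pseudo-beta libraries. Both libraries of experiment 37 were the highest of their group. Pseudo-islets were above pseudo-beta in experiments 35 and 37, by 0.50 and 0.30 on the log2 scale, and level with it in 36. The means were 1925 ± 789 normalized counts in pseudo-islets and 1592 ± 605 in pseudo-beta (SD, n = 3 each). The log2 fold change of 0.26 (95% interval -0.41 to 0.93) had an adjusted p of 0.998 in limma, and with the replicate block an interval of 0.01 to 0.51, an unadjusted p of 0.044 (0.184 without the trend) and an adjusted p of 0.406. *Ptprn2* (ENSMUSG00000056553, chromosome 12 from 116485720 to 117276849) had a normalized count of 821, 895 and 650.1 in the pseudo-islet libraries and of 714, 974 and 774 in the pseudo-beta libraries, without order between the groups. Its log2 fold change of -0.06 (95% interval -0.47 to 0.36) had an adjusted p of 0.998 in limma. Per kilobase *Ptprn* had 350.2 (range 279 to 661) and *Ptprn2* 92.7 (range 75.6 to 113) normalized counts.

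**Figure D2:**
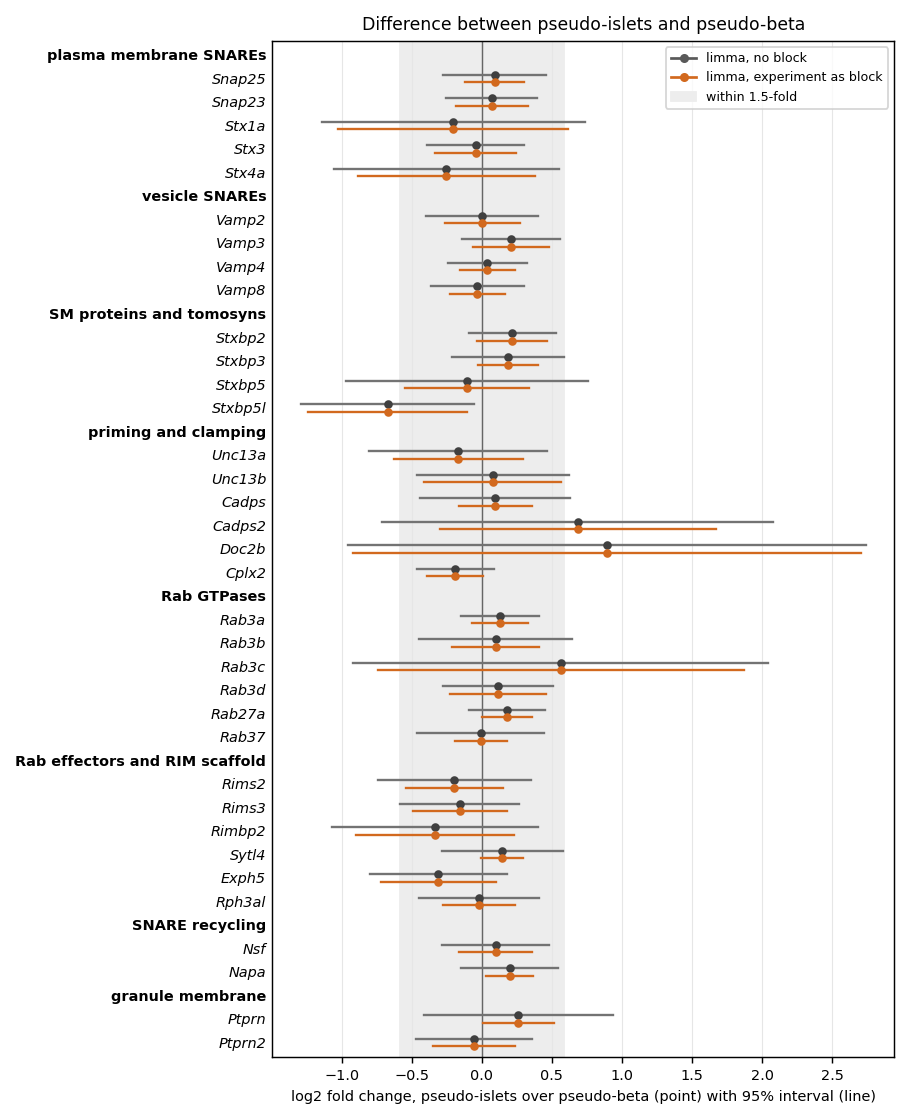
Log2 fold change of pseudo-islets over pseudo-beta (points) with its 95% interval (lines) for the 35 fusion genes by role, from limma without a block (grey) and with the experiment as a replicate block (orange). The grey band spans a 1.5-fold change in either direction. The interval excludes 0 for 1 gene without the block (*Stxbp5l*) and for 3 with it (*Stxbp5l*, *Napa* and *Ptprn*), and 0 of the 35 pass after adjustment over all genes.

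Several fusion genes had levels that went with the experiment in both groups. The mean log2 levels of the 3 experiments spanned more than the difference between the groups for 27 of the 35 genes (77.1%), beside 80.1% of all genes. A range over 3 experiments tends to exceed a single difference between groups even without any effect. This count therefore does not weigh experiment against group, and the fusion genes were near the table as a whole. In an F test of the 3 experiments in the limma fit with the block, added after the data had been seen, 6 fusion genes (17.1%) passed an adjusted p of 0.05, beside 6.32% of all genes. They were *Sytl4* (adjusted p = 0.00524), *Ptprn* (0.00566), *Rab37* (0.0123), *Stxbp5* (0.0276), *Cadps* (0.0286) and *Napa* (0.0429). These calls need limma's prior variance to follow mean expression: without that trend, the F test called 0 of the 13535 genes, and the lowest adjusted p of a fusion gene was 0.326. The fusion genes were also more abundant than the table, since 23 of the 35 averaged 500 or more, beside 4448 of the 13535 genes. The shares of 17.1% and 6.32% are not matched for level. Whether level alone gives the gap between them was not tested. In both groups *Sytl4*, *Rab37* and *Napa* were lowest in experiment 37, and *Ptprn*, *Stxbp5* and *Cadps* were highest there. *Rab37*, for example, had a normalized count of 3297, 3108 and 2148 in the pseudo-islet libraries and of 3218, 3193 and 2169 in the pseudo-beta libraries, differences of 0.03, -0.04 and -0.01 on the log2 scale within the experiments. *Cadps* had a normalized count of 717, 782 and 1129 in the pseudo-islet libraries and of 634, 742 and 1102 in the pseudo-beta libraries. Both libraries of experiment 37 were below the other 4 for 10 fusion genes (28.6%), beside 15.5% of all genes, and above them for 7 (20%), beside 16.2% of all genes. These shares were not matched for level either. The labels give no other property of an experiment than its number.

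**Figure D3:**
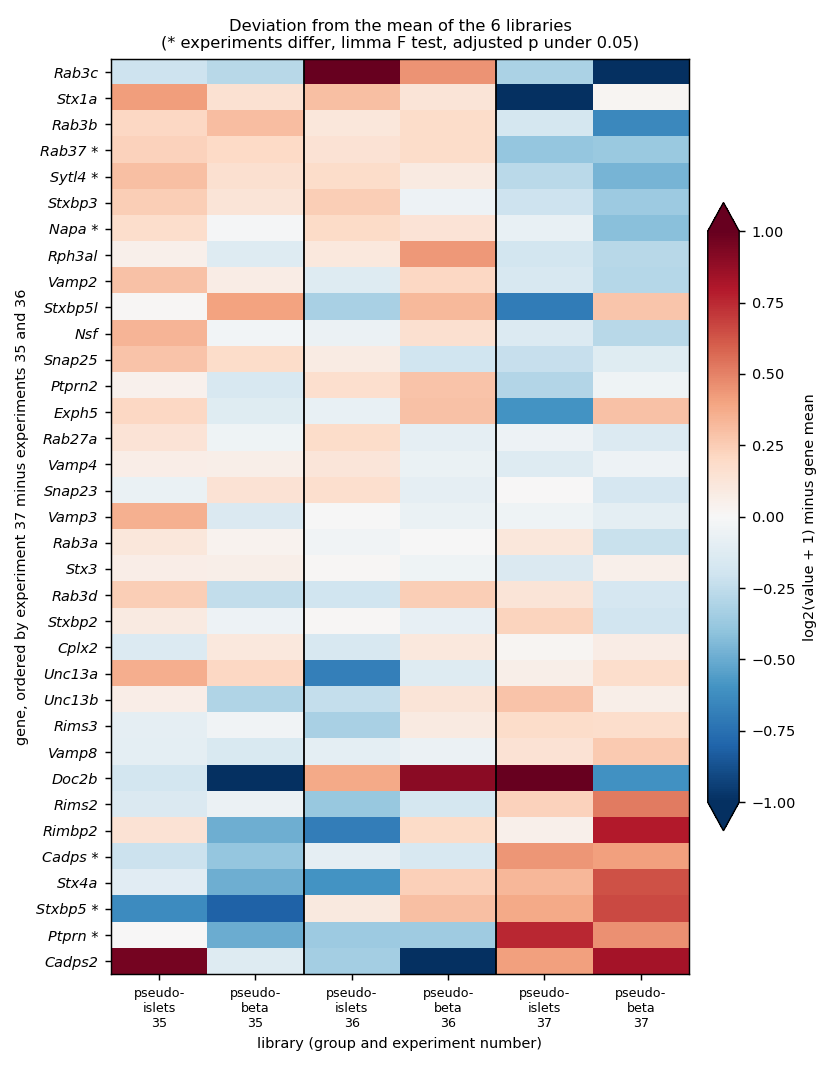
Deviation of log2(value + 1) from the mean of the 6 libraries (colour, from blue for lower to red for higher, with values past 1 in either direction drawn as 1) for the 35 fusion genes, with the libraries of each experiment side by side. Genes are ordered by experiment 37 minus experiments 35 and 36, and the 6 genes with an asterisk differed between experiments in limma's F test. For those 6 genes both libraries of experiment 37 are blue near the top (*Rab37*, *Sytl4* and *Napa*) or red near the bottom (*Cadps*, *Stxbp5* and *Ptprn*).

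Summed over all 35 genes, the fusion machinery took 0.358%, 0.328% and 0.293% of the total in the pseudo-islet libraries and 0.335%, 0.346% and 0.292% in the pseudo-beta libraries. The lowest share in either group was thus that of experiment 37, and the groups overlapped. Within experiments, the median fusion gene was 0.17 higher in pseudo-islets on the log2 scale in experiment 35, with differences of -0.04 in 36 and 0.04 in 37, beside medians of all genes of -0.0026, -0.0020 and 0.04.

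Within most families the proportions of the members were similar in the 6 libraries. These are shares of the family's normalized counts per kilobase of exon, so they do not depend on the scaling of a library. *Rab3a* made up 69.6% to 74.4% of the Rab3 family, *Rab3d* 13.8% to 18.9%, *Rab3b* 7.9% to 12.7% and *Rab3c* at most 0.148%. *Vamp8* made up 38.7% to 50.6% of the 4 VAMPs and *Vamp2* 12.7% to 18.8%. *Snap25* was 53.1% to 63.1% of the SNAPs and *Stx3* 54.0% to 66.2% of the syntaxins, with *Stx1a* at 6.2% to 16.0%. *Sytl4* was 71.1% to 79.0% of the Rab27 effectors, *Cadps* 84.5% to 97.5% of the CAPS pair and *Ptprn* 73.0% to 89.7% of its pair. The tomosyns were the family that varied most. *Stxbp5l* took 61.9%, 43.6% and 32.8% of them in the pseudo-islet libraries and 70.7%, 51.3% and 44.3% in the pseudo-beta libraries. Its share was lower in pseudo-islets in each experiment and lowest in experiment 37 in both groups, and the ranges of the groups overlapped. With the longest transcript in place of all exons, the highest gene of each of the 8 roles was the same, the lowest gene was the same in 7, *Vamp4* and *Vamp8* overlapped, and *Rims2* rather than *Rims3* took the larger part of the RIM pair in some libraries.

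**Figure D4:**
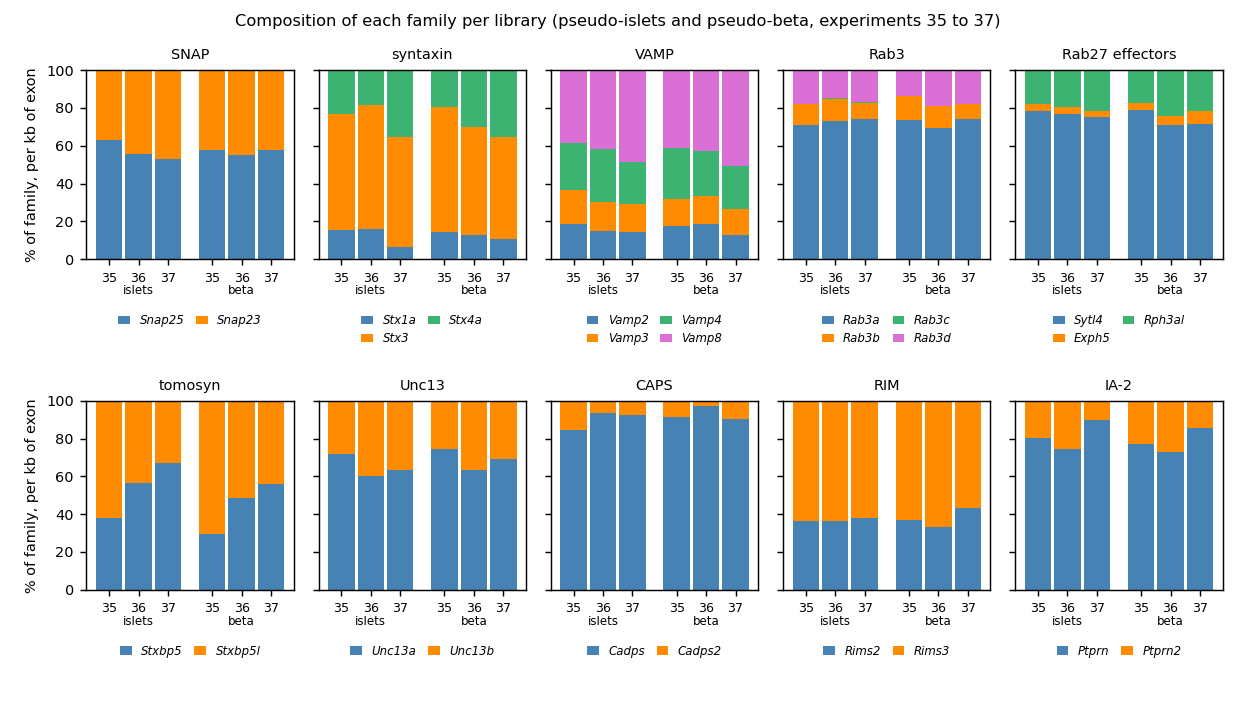
Share of each family's normalized counts per kilobase of exon (vertical axis, percent) taken by its members in the 3 pseudo-islet (left) and 3 pseudo-beta libraries (right) of experiments 35, 36 and 37. *Rab3a* holds 69.6% to 74.4% of the Rab3 family in every library, while the tomosyn *Stxbp5l* runs from 32.8% to 70.7%.

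Since glucagon and GLP1 signal through cAMP, the promoters of the fusion genes were searched for the cAMP response element TGACGTCA and for its core TGACG, on both strands. The windows are those of RefSeq on GRCm38.p6, from 250 bases before to 50 after each start site, and 29 of the 35 genes had one. The full element was in the windows of *Stxbp3* and *Napa*, 6.9% of the 29, beside 3.89% of the 9801 genes of the expression table with a window. The core, which every full element also holds, was in 12 (41.4%), beside 36.4% of those genes. By both counts the fusion genes were near the table as a whole. The stretches below are those of *Stxbp3* and *Napa*, which hold the full element, and of *Ptprn*, which had an unadjusted p under 0.05 in the blocked fit. *Stxbp5l* also had such a p in that limma fit (0.0241), and no stretch of it is shown. Capitals mark the bases that match.
Stxbp3 (chr3:108840563-108840650, minus strand): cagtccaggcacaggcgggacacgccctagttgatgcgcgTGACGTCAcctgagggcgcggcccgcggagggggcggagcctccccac
Napa (chr7:16098563-16098590, plus strand): caggcctgggTGACGTCAacgcagcggg
Ptprn (chr1:75264244-75264365, minus strand): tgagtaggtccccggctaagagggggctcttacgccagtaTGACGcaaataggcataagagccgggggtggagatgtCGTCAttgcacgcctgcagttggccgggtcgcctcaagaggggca
In *Stxbp3* the element begins 108 bases before the RefSeq start. In *Napa* it begins 7 bases before the start, so that its 8 bases reach the start itself. The printed *Napa* stretch overlaps an exon of the gene in the GENCODE M21 annotation, where the gene begins further upstream, at 16098458. Whether that exon covers the whole element was not examined. *Ptprn* has the core once on either strand, beginning 117 and 80 bases before the start.

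None of the further genes listed for exocytosis and granule formation was called. The list held no synaptotagmins, granins or prohormone processing enzymes, which were not examined here. Of 139 further genes listed, 125 were in the table, and limma called 0 of them higher and 0 lower, with and without the block, at lowest adjusted p-values of 0.0988 and 0.781. At an unadjusted p under 0.05 there were 3 (2.4%) without the block and 14 (11.2%) with it, beside 5.4% and 11.9% of all genes. By group, 0 of 58 other genes of regulated exocytosis (median log2 fold change -0.02), 0 of 25 SNAREs and their partners of other trafficking steps (0.04), 0 of 11 genes of the exocyst, the complex that tethers vesicles (0.07), and 0 of 31 genes of dense-core granule formation (0.05) were called in either fit.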

How the data were processed

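The authors made libraries from sorted beta-cells with the Ovation solo kit and ribosomal RNA depletion, aligned read pairs to GRCm38 with STAR 2.7.6a, quantified them with RSEM 1.3.1 and normalized them with DESeq2 1.26.0. The deposited signal is the authors' normalized counts for 13535 genes in 6 libraries. The annotation release, strand setting and filter on low genes are not given in the sources used here. The deposited table also holds 6 columns of the authors' own comparison (mean signal, log2 fold change and its error as log2, a test score, and p-values), which were not used.

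Because the values are not whole counts, log2(value + 1) was compared with limma 3.58.1 in R 4.3.3, with a prior variance that depends on mean level, and p-values were adjusted by Benjamini-Hochberg over the whole table. Deviations from group means correlated at 0.119 to 0.325 between libraries of one experiment and at -0.203 to 0.0922 otherwise. Each same-experiment value passed the minimum of 0.1, so the experiment numbers were taken to pair libraries. A fit with a replicate block was run beside the fit without one. The values of experiments 35 and 36 (0.119 and 0.121) lay close to the highest value otherwise, and only experiment 37 (0.325) stood well above it. Deviations from a group mean sum to 0, which by itself pushes the values between different experiments down. The study calls each n an independent biological sample, but which mice went into an experiment is not given in the sources used here, so p-values measure the spread between these samples. Levels were divided by the union of exons in GENCODE M21. Overlapping genes are present for 10 of the 35 fusion genes on the same strand and 16 on the opposite strand.

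The 39 genes, roles and lists were chosen with earlier results of these data known. Differences were printed for genes with an unadjusted p under 0.05 in either fit, with groups that do not overlap, or highest or lowest per kilobase in their role. Alternatives changed the block, prior variance, pseudocount (0.1, 10), low-value filter, scaling, libraries and gene length.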

Additional observations from a re-analysis of the deposited data

How the results depend on the processing

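The 0 fusion genes and 0 further listed pathway genes called remained 0 under every alternative run. Of 338 values of the 18 genes with printed differences, none passed an adjusted p under 0.05. The count of fusion genes with an unadjusted p under 0.05 was 1 in limma without a block, 3 with the replicate block, 1 (*Stxbp5l*) with the block and no trend of the prior variance, 2 with the block and scaling without the 10 most abundant genes, and 0 after quantile normalization. It ran from 0 to 1 when a single library was left out and from 2 to 3 when an experiment was left out of the fit with the block. The block changed no call at an adjusted p under 0.05. The median log2 fold change of the fusion genes, 0.07, ran from -0.04 (block without experiment 35) to 0.11 (block without experiment 36). It was 0.0031 after quantile normalization. Scaling without the 10 most abundant genes or quantile normalization left 18 genes above 0 and 17 below. The groups were apart for 3 genes rather than 4 when scaled without the 10 most abundant genes, and for no fusion gene after quantile normalization. The 6 fusion genes that differed between experiments were 0 when the prior variance had no trend, a setting under which 0 genes of the table differed. Signs turned in 20 of the 338 values, all with a library or an experiment left out. The values of these genes when 1 library or experiment was left out ran from -0.029 to 0.23 for *Snap25*, -0.11 to 0.090 for *Vamp8*, -0.54 to 0.20 for *Stxbp5*, -0.047 to 0.25 for *Nsf*, -0.46 to 0.26 for *Stx1a*, -0.050 to 0.55 for *Ptprn*, -0.19 to 0.076 for *Ptprn2*, -0.36 to 0.017 for *Rims2* and -0.053 to 0.31 for *Sytl4*. The cause of these turns was not tested. Over all alternatives, the other genes ran from 0.06 to 0.28 for *Vamp3*, 0.12 to 0.28 for *Stxbp2*, 0.05 to 0.34 for *Stxbp3*, -0.85 to -0.49 for *Stxbp5l*, 0.30 to 1.60 for *Doc2b*, -0.26 to -0.15 for *Cplx2*, 0.03 to 0.20 for *Rab3a*, 0.02 to 0.93 for *Rab3c* and 0.04 to 0.31 for *Napa*. The unknown read depth and 3 libraries per group limit the precision, above all below a mean of 500 normalized counts.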
